A study of Mus musculus with 10 samples.

Results

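Open chromatin was compared between iNKT2 and iNKT1 cells sorted from the thymus of BALB/c mice, using all 94823 regions of the deposited ATAC-seq table and the 5 BALB/c libraries among the 10 of the series. Invariant natural killer T (iNKT) cells are T cells that recognize lipids on CD1d, and their subsets differ in the cytokines they make. The iNKT1 libraries (n = 2) came from CD27+ CD122+ cells and the iNKT2 libraries (n = 3) from CD27+ CD122- cells, so the Il2rb locus, which encodes CD122, was fixed by the sort and is no finding. The other 5 libraries were iNKT1 (n = 2) and iNKT2 (n = 3) cells of SKG mice, a BALB/c line with a hypomorphic mutation of Zap70, and they share no library with the comparison. Nothing in the labels says whether replicates came from separate animals, so p-values measure the spread between these libraries, which may be technical.

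In ATAC-seq a transposase cuts accessible DNA, and each cut, an insertion, marks an open promoter or a distal element such as an enhancer. The iNKT1 subset depends on the T-box factor T-bet, responds to IL-12, IL-15 and IL-18 and makes interferon-gamma with a cytotoxic program shared with NK cells. The iNKT2 subset depends on PLZF (Zbtb16) and GATA-3 and makes IL-4, and a further subset, iNKT17, makes IL-17.

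The subset difference was carried mainly by elements away from promoters. Of all regions, 14725 (15.5%) were called higher in iNKT2 and 6029 (6.36%) lower, at an edgeR adjusted p under 0.01 over all regions and a change of at least 4-fold. The count of higher calls moved with the scaling, and the least accessible regions held more insertions in every iNKT2 library. The level per kb at the 5th percentile of regions was 1.41 to 1.92 CPM (insertions relative to the library's TMM-scaled total) in the iNKT2 libraries against 0.294 and 0.364 CPM in iNKT1. Quantile normalization gave 8787 higher and 8929 lower calls, subtraction of this floor 12655 and 8198, and library totals without TMM factors, which moved the median log2 change of all regions from 0.06 to 0.34, gave 17104 and 4750. Below, a robust call is a region that was also called with quantile normalization and whose libraries did not overlap between the subsets. There were 8586 robust calls higher (9.05% of regions) and 5844 lower (6.16%) in iNKT2, of which 98.3% and 99.2% were also called after the floor was subtracted. In a bulk library, fewer cells with an open region and less opening per cell cannot be told apart.

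The subset comparison in SKG mice shares no library with that in BALB/c, although the normalization and the estimate of the spread behind the calls used all 10 libraries. In SKG mice 10.2% of all regions were called higher in iNKT2 and 6.96% lower. Of the robust BALB/c calls, 61.9% of those higher and 77.0% of those lower were called in the same direction in SKG, and 1 and 0 were called in the opposite direction. The median level of the robust higher calls went from 0.230 CPM in iNKT1 to 3.82 CPM in iNKT2, and that of the robust lower calls from 5.12 to 0.585 CPM. Correlation of log levels over regions, a description, was 0.981 between the iNKT1 libraries, 0.954 to 0.978 among the iNKT2 libraries and 0.685 to 0.746 between the subsets. Library 1 of iNKT2 lay nearest to iNKT1.

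Sequences of the leading distal elements are shown so that the comparison of motifs can be read against real DNA. Each is 300 bases around the middle of an element in GRCm38 (mm10), plus strand, read from the reference and not from BALB/c reads. The elements of smallest adjusted p lay at chr10:42699036-42699335 in an intron of Ostm1, a lysosomal membrane protein, and at chr7:49364591-49364890 in an intron of Nav2, a cytoskeletal protein, both open in iNKT2. Those open in iNKT1 lay at chr6:51060049-51060348, between genes and nearest to Nfe2l3, and at chr14:121934447-121934746, in an intron of Ubac2 and nearest to Gpr18, a lipid-sensing receptor. Capitals in the sequences mark CTTTGAT in elements open in iNKT2 and TCACACC in those open in iNKT1, and these 4 elements hold neither. Other strings searched below are left in lower case. Examples are CAGGTG in the Ostm1 element, TTTGATG, another TCF/LEF string, in the Nav2 element, and TGANTCA in that near Nfe2l3.
Ostm1: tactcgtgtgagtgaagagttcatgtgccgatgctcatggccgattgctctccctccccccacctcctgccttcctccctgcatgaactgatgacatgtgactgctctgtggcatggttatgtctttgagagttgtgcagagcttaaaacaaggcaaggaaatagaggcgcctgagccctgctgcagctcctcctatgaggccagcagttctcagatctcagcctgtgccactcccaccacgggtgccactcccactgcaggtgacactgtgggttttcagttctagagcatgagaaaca
Nav2: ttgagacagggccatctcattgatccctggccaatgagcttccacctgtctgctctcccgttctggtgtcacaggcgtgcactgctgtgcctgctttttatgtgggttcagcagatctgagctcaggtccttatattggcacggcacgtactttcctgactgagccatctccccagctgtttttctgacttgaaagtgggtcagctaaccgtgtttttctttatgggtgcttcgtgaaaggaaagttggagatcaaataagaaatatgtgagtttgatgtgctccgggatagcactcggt
Nfe2l3: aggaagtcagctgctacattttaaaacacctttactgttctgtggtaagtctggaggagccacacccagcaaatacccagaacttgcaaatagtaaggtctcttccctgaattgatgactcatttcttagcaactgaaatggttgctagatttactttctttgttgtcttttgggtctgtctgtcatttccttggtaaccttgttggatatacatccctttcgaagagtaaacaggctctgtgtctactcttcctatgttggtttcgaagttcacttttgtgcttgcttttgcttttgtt
Gpr18: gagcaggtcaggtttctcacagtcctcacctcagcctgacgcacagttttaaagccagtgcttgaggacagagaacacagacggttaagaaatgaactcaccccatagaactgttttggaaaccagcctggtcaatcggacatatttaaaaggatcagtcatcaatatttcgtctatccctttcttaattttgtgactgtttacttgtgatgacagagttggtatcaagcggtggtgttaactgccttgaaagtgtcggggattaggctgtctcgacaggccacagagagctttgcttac

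Because those 4 held neither string, another 4 elements were chosen after the values were seen, as the robust calls of smallest adjusted p, called in SKG too, that hold the string most typical of their direction. Those open in iNKT2 lay at chr4:58235841-58236140, between genes and nearest to Svep1, and at chr3:126589560-126589859, between genes and nearest to Camk2d, a calcium-dependent kinase, and the capitals mark CTTTGAT, the core read by TCF-1 and LEF-1, found on the minus strand and printed as ATCAAAG. Those open in iNKT1 lay at chr2:128407116-128407415, between genes and nearest to Spdye4c, and at chr10:122725966-122726265, in an intron of Ppm1h, a phosphatase, and the capitals mark TCACACC, the core of the T-box motif, on the plus strand in the former and on the minus strand, as GGTGTGA, in the latter. Positions from the first printed base were 8 to 14 near Svep1, 172 to 178 near Camk2d, 89 to 95 near Spdye4c and 206 to 212 near Ppm1h.
Svep1: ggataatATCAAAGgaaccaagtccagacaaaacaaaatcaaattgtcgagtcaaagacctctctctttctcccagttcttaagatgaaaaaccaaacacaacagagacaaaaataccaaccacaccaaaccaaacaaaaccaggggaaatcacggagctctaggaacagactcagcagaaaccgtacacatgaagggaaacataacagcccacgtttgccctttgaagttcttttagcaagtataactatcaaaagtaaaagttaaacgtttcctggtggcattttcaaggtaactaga
Camk2d: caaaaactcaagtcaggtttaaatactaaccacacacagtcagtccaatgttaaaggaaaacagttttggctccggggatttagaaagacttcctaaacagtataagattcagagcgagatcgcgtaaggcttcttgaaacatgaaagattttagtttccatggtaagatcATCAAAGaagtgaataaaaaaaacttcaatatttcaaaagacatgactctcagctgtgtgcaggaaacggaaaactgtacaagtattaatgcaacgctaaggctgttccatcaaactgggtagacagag
Spdye4c: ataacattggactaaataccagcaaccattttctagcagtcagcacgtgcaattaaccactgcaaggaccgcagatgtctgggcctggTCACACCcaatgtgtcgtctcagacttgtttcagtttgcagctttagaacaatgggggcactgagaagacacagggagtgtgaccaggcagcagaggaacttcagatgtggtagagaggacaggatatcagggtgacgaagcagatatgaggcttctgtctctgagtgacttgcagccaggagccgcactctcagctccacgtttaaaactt
Ppm1h: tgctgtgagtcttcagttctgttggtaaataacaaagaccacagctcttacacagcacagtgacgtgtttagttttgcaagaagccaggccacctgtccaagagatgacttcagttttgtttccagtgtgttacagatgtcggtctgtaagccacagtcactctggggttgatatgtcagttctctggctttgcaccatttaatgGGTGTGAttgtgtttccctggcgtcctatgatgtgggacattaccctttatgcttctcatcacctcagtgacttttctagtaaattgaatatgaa

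The elements whose sequences are printed differed by over 10-fold between the subsets. The Ostm1 element (chr10:42698983-42699388) held 2.00 and 1.54 CPM in the iNKT1 libraries and 37.3, 42.9 and 44.3 CPM in iNKT2 (log2 change 4.53, SE 0.194, edgeR adjusted p = 3.3e-09). The Nav2 element (chr7:49364374-49365106) went from 0.687 and 0.529 CPM to 32.5, 45 and 43.2 CPM (log2 6.01). In the other direction the Nfe2l3 element (chr6:51059924-51060472), 372198 bp from the nearest start, held 47.3 and 55.2 CPM in iNKT1 and 1.51, 1.75 and 1.53 CPM in iNKT2 (log2 -5.00, SE 0.177, edgeR adjusted p = 7.1e-10). The subsets did not overlap at any of them. The element nearest to Gpr18 (chr14:121934280-121934912) fell from 47.6 and 58.6 CPM to 3.95, 3.65 and 3.30 CPM (log2 -3.86), and SKG moved alike at all 4 (log2 3.56, 5.97, -3.82 and -2.93).

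Among the elements with a string, that near Svep1 held 0.358 and 0.176 CPM in iNKT1 and 17.4, 19.0 and 18.5 CPM in iNKT2 (log2 6.0), and that near Camk2d 1.28 and 1.23 CPM against 25.8, 24.0 and 26.4 CPM (log2 4.33). The element near Spdye4c held 13.5 and 13.3 CPM in iNKT1 and 0.596, 0.503 and 0.412 CPM in iNKT2 (log2 -4.70), and that in Ppm1h 21.9 and 22.1 CPM against 0.627, 0.265 and 0.330 CPM (log2 -5.74). None of the 4 overlapped between the subsets.

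Other leading distal elements, taken by smallest adjusted p with ties broken by the unadjusted p, lay in or near genes of varied function. Open in iNKT2 were an element in an intron of Emb, an immunoglobulin-family adhesion molecule, and assigned to Gm17509 by nearest start (chr13:117242032-117243044), with 1.40 and 1.41 CPM in iNKT1 and 29.9, 45.9 and 37.9 CPM in iNKT2 (log2 4.75), and 1 nearest to Fbn2, with log2 6.87. Open in iNKT1 were elements nearest to Depdc1b (log2 -3.44), in an intron of Cubn, an endocytic receptor (-3.91), and in an intron of Suclg2, a subunit of a Krebs cycle enzyme (-4.80). These 5 also moved in the same direction in SKG, by 3.14, 4.28, -3.23, -3.08 and -5.88. An intergenic region at chr2:99472957-99473258, 805656 bp from any protein-coding start and nearest to Gm10800, stood apart. It held 0.149 and 0.220 CPM in iNKT1 and 17.3, 19.0 and 18.9 CPM in iNKT2 of BALB/c (log2 6.65), but 0.149 to 0.385 CPM in all 5 SKG libraries.

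Distance from promoters went with the share of regions that differed. Within 1 kb of a protein-coding start 4.18% of 22121 regions were called higher and 1.69% lower in iNKT2. From 1 to 10 kb the shares were 13% and 7.39% of 23981 regions, from 10 to 100 kb 19.6% and 7.70% of 40205, and beyond 100 kb 32.8% and 9.29% of 8516. Robust calls kept this order, with 2.57%, 7.29%, 11.3% and 20.2% higher and 1.60%, 7.19%, 7.46% and 8.99% lower. The classes also differed in level, with a median iNKT1 level of 12.7 CPM within 1 kb and 1.38 CPM beyond 100 kb, and of the regions below the lower quartile of level 35.6% were called higher, against 2.01% above the upper quartile. The part of level in the trend with distance was not tested.

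**Figure D1:**
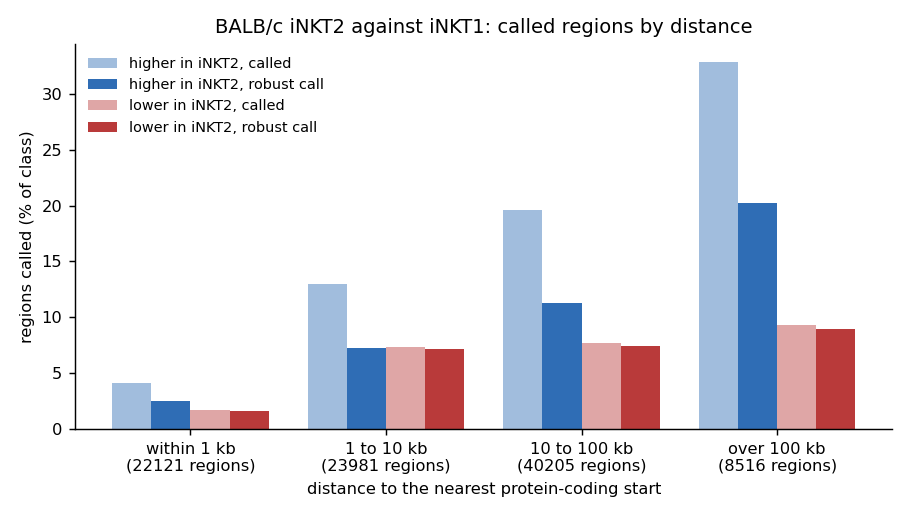
Share of regions called between BALB/c iNKT2 and iNKT1 (percent of the class, y axis) in 4 classes of distance to the nearest protein-coding start (x axis). Pale bars are all calls and full bars robust calls, blue for higher and red for lower in iNKT2, and the blue bars climb from 4.18% within 1 kb to 32.8% beyond 100 kb while the red bars climb from 1.69% to 9.29%.

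Summed by gene, the same split appeared between promoters and the rest of a locus. Over regions further than 1 kb from every start and assigned to the nearest gene within 100 kb, 2740 of 13000 genes (21.1%) were called higher in iNKT2 and 1829 (14.1%) lower, at an edgeR adjusted p under 0.01 and at least 2-fold. With quantile normalization the counts were 1933 and 1957, and scaling by totals alone 4027 and 977, with a median over all genes of 0.49 in place of 0.07. Over promoters, 1214 of 13066 genes (9.29%) were called higher and 254 (1.94%) lower, and quantile normalization gave 704 and 588. The promoter counts depended on single libraries. Higher calls numbered 718 without iNKT1 library 1 and 752 without iNKT1 library 2, while lower calls numbered 153 without iNKT1 library 1 and 444 without iNKT2 library 1.

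In most genes whose distal sum was called, the promoter sum was not called. Of 9780 genes with both sums, 1749 were called higher over distal regions, and the promoter of 474 of them was called higher, of 3 lower and of 1272 neither. Of 1460 genes lower over distal regions, the promoter of 154 was called lower, of 29 higher and of 1277 neither. A promoter not called is not shown to be equal.

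Loci outside the signature genes that the study lists for these subsets were then ranked by their robust calls, and the 10 with the most in each direction are described. Their ranking used this comparison, so their own values are a description. The SKG changes beside them come from other libraries, which entered the choice through the shared spread and normalization. Among the 10 higher in iNKT2 were genes of lipid and cyclic nucleotide signalling (Plcb4, Pde7b), membrane and glycan biology (Mtss1, Tspan5, Gcnt1, Lclat1), metabolism (Chdh), small GTPase biology (Rasgef1b, Rhobtb1) and the IL-1 receptor Il1r1. Among the 10 lower in iNKT2 were signalling adaptors and exchange factors (Pik3ap1, Prex1), receptors (Ifngr1, Slamf7, Cmklr1), an integrin (Itgb1), the transcription factor Runx3, a granzyme (Gzma) and Chsy1 and Gas7.

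Plcb4, phospholipase C beta 4, which releases second messengers downstream of G proteins, had 24 of its 30 regions called higher, 22 of them in its introns. Its non-promoter sum was 61.8 and 59.4 CPM in iNKT1 and 428, 561 and 574 CPM in iNKT2, and its promoter 36.8 and 37.3 against 139, 140.2 and 147 CPM. Both sums were several times higher in every iNKT2 library (distal log2 3.10, SE 0.153, edgeR adjusted p = 4.4e-09), and the distal change in SKG was 3.18. Mtss1, which links membranes to actin, had 20 of 25 regions higher, with a distal sum of 44.5 and 34.7 CPM in iNKT1 and 269, 275 and 300.3 CPM in iNKT2 (log2 2.82). Its promoter went from 5.81 and 4.72 CPM to 54.8, 62.5 and 62.0 CPM (log2 3.49).

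Chdh, choline dehydrogenase, lies next to the signature gene Il17rb, which encodes a subunit of the IL-25 receptor, and shares a promoter region with it, so their promoter sums are 1 measurement. The shared promoter held 12.9 and 9.37 CPM in iNKT1 and 28.3, 30.7 and 28.9 CPM in iNKT2 (log2 1.39). The block of elements lay on the Chdh side, where 19 of 21 regions were called. All 19 lay in introns of Chdh or of another gene, since the assigned regions reached chr14:30104255 and Chdh ends at 30040527. The distal sum was 34.5 and 30.4 CPM against 319, 319 and 334 CPM (log2 3.32, SE 0.119, edgeR adjusted p = 3.3e-10). Of 6 regions assigned to Il17rb itself all were called higher. Which gene the elements act on was not tested.

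Gcnt1 and Rhobtb1 had the largest distal changes among the 10 higher loci. Gcnt1 encodes the enzyme that starts core 2 branches on O-glycans, as carried by selectin ligands, and had 14 of 15 regions called higher, and 6 higher calls lay in the gene or within 20 kb of it. Its distal sum was 6.84 and 3.20 CPM in iNKT1 and 121, 153 and 141 CPM in iNKT2, and its promoter 1.37 and 1.51 against 31.5, 33.7 and 28.5 CPM. Rhobtb1, a protein with a GTPase-like domain, had 18 of 19 called, with 8.78 and 11.6 CPM against 185, 261 and 259 CPM. The distal log2 changes were 4.73 and 4.54, with 2.97 and 4.43 in SKG, and no library of either subset overlapped the other.

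Pde7b, a phosphodiesterase that degrades cAMP, had 22 of 25 regions higher and a distal log2 change of 2.62 (SKG 3.04). Il1r1 had 20 of 25 regions higher, and its promoter went from 0.831 and 0.786 CPM to 18.8, 19.9 and 20.4 CPM (log2 4.59), in the company of the iNKT17 genes given below. Tspan5, a tetraspanin, had 18 of 35 regions higher with a distal sum of 199 and 178 against 425, 523 and 498 CPM (log2 1.36). In SKG the Tspan5 change was 0.57 and not called, and the difference between strains did not pass (edgeR adjusted p = 0.0203). Lclat1, which remodels cardiolipin, had the most called regions of the 10, 27 of 53, yet its sum of 578 and 552 against 761, 759.5 and 704 CPM moved by only 0.39 on the log2 scale and was not called, whereas with quantile normalization it was called with log2 1.02. Rasgef1b, a guanine nucleotide exchange factor of the Ras family, had 16 of 27 called and 62.8 and 54.6 against 261, 273 and 259.6 CPM (log2 2.17), and its change in SKG, 1.09, was smaller by the test of the difference (edgeR adjusted p = 0.00351).

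Among the loci lower in iNKT2, Gas7, a protein of the actin cytoskeleton, had the largest distal change. All 14 of its assigned regions were called lower, 13 in introns, and none lay at a promoter. The sum was 234 and 246 CPM in iNKT1 and 5.42, 0.587 and 2.87 CPM in iNKT2 (log2 -6.38, SE 0.400, edgeR adjusted p = 1.8e-08), and all 14 regions were also called lower in SKG. Gzma, a granzyme, had 12 of 13 regions lower, with 227 and 254 CPM over distal regions against 16.1, 10.4 and 9.54 CPM (log2 -4.32) and 43.5 and 39.4 CPM at the promoter against 8.11, 6.53 and 7.46 CPM (log2 -2.50). Slamf7, a homotypic receptor of NK and T cells, had 13 of 15 lower, with 630.4 and 586 CPM against 69.4, 30.9 and 28.9 CPM (log2 -3.82). Library 1 of iNKT2 was the highest of its group at all these loci and still below every iNKT1 library.

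At some of these loci the promoter was called with the distal regions and at others it was not. Itgb1, the integrin beta-1 chain, had 15 of 24 regions lower, 14 of them intergenic, but 1 lower call was left when only regions in the gene or within 20 kb of it were counted. Its distal sum fell from 545 and 556 CPM to 76.5, 56.6 and 52.7 CPM (log2 -3.15), while its promoter held 76.9 and 68.7 CPM in iNKT1 and 61.6, 70.3 and 71.9 CPM in iNKT2, with overlapping libraries (log2 -0.10, edgeR adjusted p = 0.518). Ifngr1, a chain of the interferon-gamma receptor, had 21 of 33 lower and 1 higher, 18 of its called regions intergenic, with 2072 and 2094 CPM against 433, 376 and 374 CPM (log2 -2.40) and a promoter change of -0.60 that was not called. Within 20 kb the lower calls were 9 at Ifngr1. Cmklr1, the chemerin receptor, changed at both, with 296 and 262 CPM against 35.8, 19.0 and 21.6 CPM over distal regions (log2 -3.45) and log2 -3.07 at the promoter.

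Pik3ap1, an adaptor that couples receptors to PI3 kinase, had 23 of 28 regions lower, all in its introns by the annotation, and went from 1134 and 1087 CPM to 308, 196 and 203 CPM (log2 -2.24). Prex1, a Rac exchange factor, had 29 of 78 lower with 2567 and 2436 CPM against 849.6, 698 and 649 CPM (log2 -1.77). Runx3, a Runt-family factor of cytotoxic T cells and NK cells, had 17 of 48 lower (8 within 20 kb) and 1 higher with 1252 and 1140.1 CPM against 446, 341 and 341 CPM (log2 -1.67), and Chsy1, a chondroitin sulfate synthase, 16 of 44 lower with log2 -1.79. The promoters of Prex1, Runx3 and Chsy1 were not called (log2 -0.83, -0.64 and -0.47). Distal changes in SKG had the same sign at all 10 loci, from -1.16 at Prex1 to -5.56 at Gas7.

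**Figure D2:**
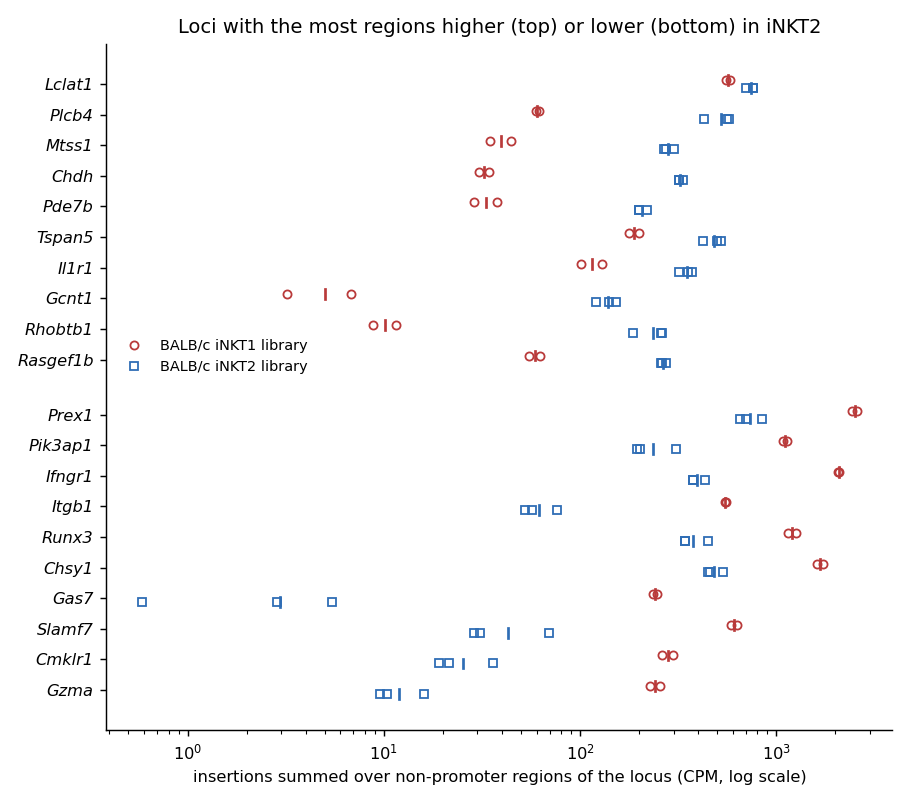
Insertions summed over the non-promoter regions of each locus (CPM, logarithmic x axis) in each of the 2 BALB/c iNKT1 libraries (red circles) and 3 iNKT2 libraries (blue squares), with a bar at each group mean. The subsets do not overlap at any of the 20 loci, Lclat1 lying closest (578 and 552 against 704 to 761 CPM) and Gas7 furthest apart.

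The promoters of smallest adjusted p were then taken in each direction. Open in iNKT2 were Flrt2, an adhesion protein (chr12:95691545-95692312, 0.717 and 0.749 CPM against 23.3, 26.1 and 32.3 CPM, log2 5.21), and Pou2af1, the coactivator OCA-B known from B cells and T helper cells (chr9:51213406-51214226, 2.54 and 2.34 CPM against 35.2, 37.7 and 34.4 CPM, log2 3.87). Others were Bend5 (log2 4.01), Calcrl, a receptor for CGRP and adrenomedullin (6.19), and Il17f (6.21). Open in iNKT1 were P2rx3, an ATP-gated channel (chr2:85034023-85034508, 35.4 and 32.7 CPM against 3.58, 3.54 and 3.71 CPM, log2 -3.24), Mfsd6, a transporter-like membrane protein (-4.73), Klre1, a lectin-like NK receptor (-5.61), Serpinb6b, a serine protease inhibitor (-2.47), Stard10, a lipid transfer protein (-5.62), and Ccnd3, cyclin D3 (-2.64). Each of these promoters moved in the same direction in SKG.

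Called regions also ran together along chromosomes. There were 475 runs of 5 or more consecutive regions all called higher in iNKT2, which held 3592 regions (24.4% of the higher calls), and 102 runs of lower calls with 718 regions (11.9%). The longest run of lower calls covered 98.5 kb of the NK gene complex (chr6:129581920-129680430) over Klre1, Klrd1, Klrk1, Klrc3, Klrc2 and Klrc1, genes of lectin-like receptors of NK and cytotoxic cells. All 29 regions were robust and 28 were called lower in SKG, with a median log2 change of -4.19 and a median level of 9.46 CPM in iNKT1 and 0.435 CPM in iNKT2. Within this run the distal sum of Klrd1 (CD94) was 293 and 265 CPM against 16.3, 6.39 and 6.05 CPM, and that of Klrk1 (NKG2D) 304 and 306 against 47.2, 27.9 and 28.4 CPM. Around Klrd1, 160 regions of the complex held 77 lower calls, all robust, 2 higher calls and 81 regions not called. Reads were kept by the study only where they aligned uniquely, and BALB/c reads were aligned to the C57BL/6J genome, so values in these near-identical receptor families are uncertain.

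**Figure D3:**
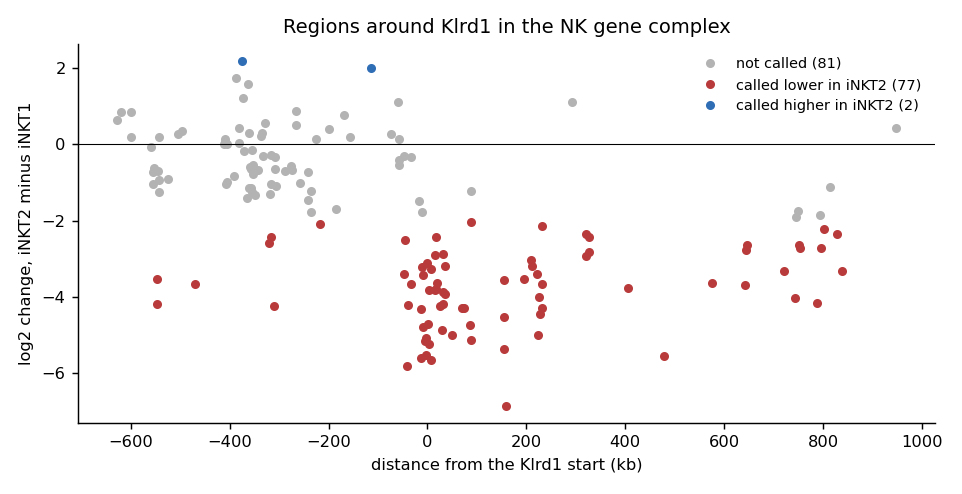
Log2 change of each of 160 regions (y axis, iNKT2 minus iNKT1) by its distance from the Klrd1 start in kb (x axis), red for the 77 called lower in iNKT2, blue for the 2 called higher and grey for the 81 not called. The red points gather around Klrd1 and reach below -5.

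The next longest runs of lower calls lay on chromosomes 11 and 13. A run of 16 regions (chr11:83558711-83729110) spanned the chemokine genes Ccl9, Ccl6, Ccl3 and Ccl4 with a median log2 change of -5.98, 15 regions lay around Gzma and Gpx8 (chr13:113047843-113105102, median -4.54) and 14 in Gas7 (chr11:67452366-67608672, median -6.23). All regions of these 3 runs were robust and called in SKG. The longest runs of higher calls were wider and poorer in genes. One of 36 regions (chr13:25055079-28951559) ended at Sox4, a factor of early lymphocytes, with 30 robust calls, 27 called in SKG and a median log2 change of 4.46, and 30 of its regions lay over 100 kb from any start. The next held 32 regions around Cd109, Col12a1 and Cox7a2 (chr9:78845728-79756422), 27 from Khdrbs3 to Col22a1 (chr15:68924143-72084002) and 25 near 4930452B06Rik (chr14:8556823-9393806), of which 27, 21 and 19 were robust and 16, 19 and 9 were called in SKG.

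Lists of genes of known function were then described. They were chosen with earlier results of these data known, so their counts are no independent evidence. They are set against all 86307 regions within 100 kb of a start, whose median log2 change was 0.01. Of those regions 7.96% were robust calls higher and 5.88% lower. Cytotoxicity and NK receptor genes changed most on the iNKT1 side. Of 185 regions 90 (48.6%) were robust calls lower in iNKT2 and 0 higher, with a median of -2.04. Of 21 promoters 15 were called lower, where 1.94% of all promoters were. Prf1, perforin, held 106 and 92.2 CPM at its promoter in iNKT1 and 18.3, 7.34 and 7.0 CPM in iNKT2 (log2 -3.19), and Gzmb 87.3 and 80.2 against 9.11, 5.76 and 4.78 CPM (log2 -3.68). Nkg7, a granule protein, held 192 and 183 against 21.8, 5.0 and 4.78 CPM (log2 -4.16), and Fcer1g, a signalling adaptor of NK receptors, 8.76 and 10.5 against 0.647, 0.135 and 0.262 CPM (log2 -4.82). No iNKT2 library reached an iNKT1 library at any of these promoters.

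Type 1 factors, receptors and chemokines lost accessibility as well, with 112 of 356 regions (31.5%) robust lower, 5 robust higher and a median of -1.23. Receptors and the signal transducer for IL-12 and IL-18 were among the 7 of 22 promoters called lower, where 1.94% of all promoters were. Il12rb2 held 188 and 188 CPM against 44.6, 27.6 and 25.2 CPM (log2 -2.54), Stat4 108 and 118 against 25.7, 21.9 and 17.5 CPM (log2 -2.37) and Il18rap 106 and 101 against 38.9, 27.2 and 21.1 CPM (log2 -1.83). The others were the chemokine genes Ccl3 (log2 -4.45), Ccl4 (-5.71), Ccl5 (-4.02) and Xcl1 (-3.53). The promoter of Eomes, a T-box factor, was not called (log2 -0.97), and its distal sum had log2 -0.92.

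Type 2 cytokines and factors did not mirror this. Of 275 regions 24 were robust higher and 16 lower, near the background of all regions, with a median of 0.14, while 7 of 16 distal sums were called lower and 1, Ptger2, higher, where 14.1% of all genes were lower. Of 16 promoters 4 were called higher, where 9.29% of all promoters were. They were those of the cytokine Il5 and of the receptors Il1rl1, Il9r and Ccr4. Il5 held 0.0415 and 0.0605 CPM in iNKT1 and 8.99, 7.88 and 8.31 CPM in iNKT2 (log2 7.21), and Il9r 2.20 and 2.72 against 16.8, 15.9 and 15.6 CPM (log2 2.72). The promoters of Il4, Il13, Gata3, Maf and Icos were not called, with log2 0.47, -0.38, 0.09, -0.02 and -0.00. Single distal elements did differ, the robust call of smallest p being higher at Maf and Icos (log2 4.68 and 3.03) and lower at Gata3 (-2.92). At Il4 the iNKT1 libraries held 35.5 and 32.0 CPM and the iNKT2 libraries 65.6, 38.9 and 35.9 CPM. The lower distal sums were those of Gata3 and Il4 (both log2 -1.07), Batf, Ccr8, Il1rl1, Il4ra and Ptgdr2, of which Il4ra (log2 -1.60) and Ptgdr2 (-1.90) were also called with quantile normalization.

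The Il1rl1 locus, which encodes the IL-33 receptor ST2, went both ways. Its promoter rose from 0.581 and 0.846 CPM to 5.59, 5.99 and 6.55 CPM (log2 3.10), while its distal regions held 504 and 441 CPM in iNKT1 and 273, 196 and 181 CPM in iNKT2 (log2 -1.13), a call that was lost with quantile normalization (log2 -0.59). Such opposite calls were seen in 32 genes, 29 with the promoter higher, and in 7 with quantile normalization too. These 7 were 1700012B07Rik, 1700066B19Rik, Dctd, Gm10964, Kif19a, Napb and Ptprn2. At Ptprn2, a phosphatase-like protein of secretory granules, the promoter held 2.03 and 1.87 against 8.35, 7.74 and 12.0 CPM and the distal regions 31.2 and 31.4 against 13.7, 5.21 and 7.90 CPM. Regions were assigned by nearest start, and those given to a gene may act on another.

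The lists of T lineage genes and of genes induced by the T cell receptor are set against 9.29% of all promoters called higher. Of all regions within 100 kb of a start, 7.96% were robust higher and 5.88% lower. In the T lineage list 39 of 581 regions (6.71%) were robust higher and 29 (4.99%) lower, both under those shares, and 3 of 19 promoters were called higher. Among them were Sox4 (29.2 and 28 against 119, 151 and 135 CPM, log2 2.24) and Themis, a regulator of T cell receptor signals in the thymus (6.35 and 6.05 against 56.5, 70.0 and 60.6 CPM, log2 3.33, and 0.95 in SKG). In the T cell receptor list 34 of 579 regions (5.87%) were robust higher and 43 (7.43%) lower. There 2 of 29 promoters were called higher, Tnfrsf4 (OX40), a costimulatory receptor (log2 4.05), and Tox2, a nuclear factor (log2 2.02). The promoter of Egr2, induced by T cell receptor signals, held 278 and 276 CPM in iNKT1 and 264, 276 and 291 CPM in iNKT2 (log2 0.00). An intergenic element 22933 bp from its start (chr10:67512214-67512542), the robust call of smallest p at Egr2, did differ. It held 1.64 and 1.37 CPM in iNKT1 and 9.88, 12.3 and 15.6 CPM in iNKT2 (log2 3.05, and 4.11 in SKG). Distal sums of Spry2, an inhibitor of MAP kinase signals, and Bcl2l11 (Bim), a mediator of cell death, were lower (log2 -2.27 and -1.84).

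Trafficking and residency genes leaned to iNKT1, with 56 of 270 regions (20.7%) robust lower and 8 higher. Over all genes, 1.94% of promoter sums were called lower and 9.29% higher. Lower promoters were Itga1, the CD49a integrin chain (39.3 and 41.3 against 9.35, 5.0 and 5.24 CPM, log2 -2.63), Zfp683, which encodes Hobit (-2.78), Ly6c2 (-3.01), Cx3cr1 (-1.44) and Selplg (-1.17), of 18 with a promoter sum. S1pr1, needed for exit from the thymus, was the single promoter called higher, with 11.9 and 11.6 against 25.2, 38.7 and 35 CPM (log2 1.49). Klf2, which drives S1pr1, was lower over distal regions (448 and 421 against 156, 143 and 138 CPM, log2 -1.57), and its promoter change of -0.80 was under 2-fold. Ion channels, enzymes and cAMP signalling had 40 of 710 regions (5.63%) robust higher and 31 (4.37%) lower, both under the shares of all regions (7.96% and 5.88%). Only 1 of 25 promoters was called higher, where 9.29% of all promoters were. It was Pde10a, a phosphodiesterase (1.83 and 1.93 against 14.3, 12.4 and 13 CPM, log2 2.81).

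Markers of the iNKT17 subset were more open in the iNKT2 libraries at most of their promoters and at some of their distal sums. Of all genes, 9.29% of promoter sums and 21.1% of distal sums were called higher. Of 134 regions 54 (40.3%) were robust higher and 3 lower, with a median of 2.69, and 10 of 12 promoters were called higher, not Nrp1 and Rora. Tmem176a and Tmem176b share a promoter, and with quantile normalization their calls and that of Ccr6 were lost. Over distal regions 4 of 12 sums were called higher, those of Il17a, Il17f (not with quantile normalization), Il23r and Il1r1, and that of Ccr6 was lower, with 90.3 and 84.2 CPM in iNKT1 and 37.0, 23.0 and 28.4 CPM in iNKT2 (log2 -1.57). The summed promoter level of the list was 122 and 129 CPM in iNKT1 and 257 to 271 CPM in iNKT2. Il17a held 0.0831 and 0.363 CPM in iNKT1 and 12.3, 16.6 and 13.7 CPM in iNKT2 (log2 6.10), and Il23r 0.208 and 0.242 against 7.76, 11.1 and 11.8 CPM (log2 5.48). Il17f (log2 6.51 over all its promoter regions) and Blk (6.07) were likewise near 0 in iNKT1. The study sorted iNKT2 cells as CD27+ CD122- and gave no iNKT17 library. Whether the iNKT2 libraries held iNKT17 cells was not tested. Nor was the part of such cells in the values of this list, Il1r1 and Il17f included.

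Markers of other cells were uneven, and the signature genes followed the labels for iNKT1 but in part for iNKT2. The summed promoter level was 82.7 and 89.3 CPM in iNKT1 and 80.3 to 92.6 CPM in iNKT2 for 7 immature thymocyte genes (Cd24a and Arpp21 higher, the latter not with quantile normalization, and no region at Rag1, Rag2 or Ptcra), 14.4 and 14.6 against 34.1 to 36.9 CPM for 3 B cell genes (Pax5 higher, Cd79b lower, no promoter sum for Cd79a), 143 and 148 against 119 to 146 CPM for 7 myeloid genes (Cebpa higher) and 124 against 129 to 147 CPM for 3 thymic epithelial genes (Aire higher). Region counts did not always follow these sums. Robust calls higher and lower numbered 4 and 2 of 44 regions for the immature thymocyte list. They numbered 0 and 4 of 23 for the B cell list and 7 and 4 of 55 for the myeloid list. The thymic epithelial list had 1 and 0 of 17. Of all regions within 100 kb of a start 7.96% were robust higher and 5.88% robust lower. Of 20 housekeeping promoters 0 were called. Of the iNKT1 signature 64 of 152 regions were robust lower. Of its 8 promoters 6 were called lower, where 1.94% of all promoters were, Tbx21 and Ifng among the 6 (log2 -1.33 and -2.44). Of the iNKT2 signature 18 of 141 regions were robust higher, and the promoters of Slamf6, Il17rb and Il6ra were called higher (log2 1.03, 1.39 and 1.41). Those of Zbtb16 (log2 -0.14) and Ccr7 (0.87) were not. Of all promoters 9.29% were called higher. Over distal regions 7 of 8 iNKT1 signature genes were called lower, all but Il2, and 1 of 5 iNKT2 signature genes, Il17rb, was called higher. Of all distal sums 14.1% were called lower and 21.1% higher. Il2rb, fixed by the sort, is 1 of the 8 iNKT1 signature genes. The study named these genes for accessibility that differs between the subsets in these data, so the counts are no independent evidence. The distal sum of Zbtb16 held 1331 and 1222 CPM in iNKT1 and 995, 815 and 860.2 CPM in iNKT2, lower in every iNKT2 library but under 2-fold (log2 -0.52, edgeR adjusted p = 9.2e-04), and with quantile normalization the change was 0.12. By single regions, 7 of the 85 at Zbtb16 were called higher and 0 lower, and 13 of 17 at Il6ra higher and 0 lower. Of all regions within 100 kb of a start 13.8% were called higher and 6.07% lower.

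**Figure D4:**
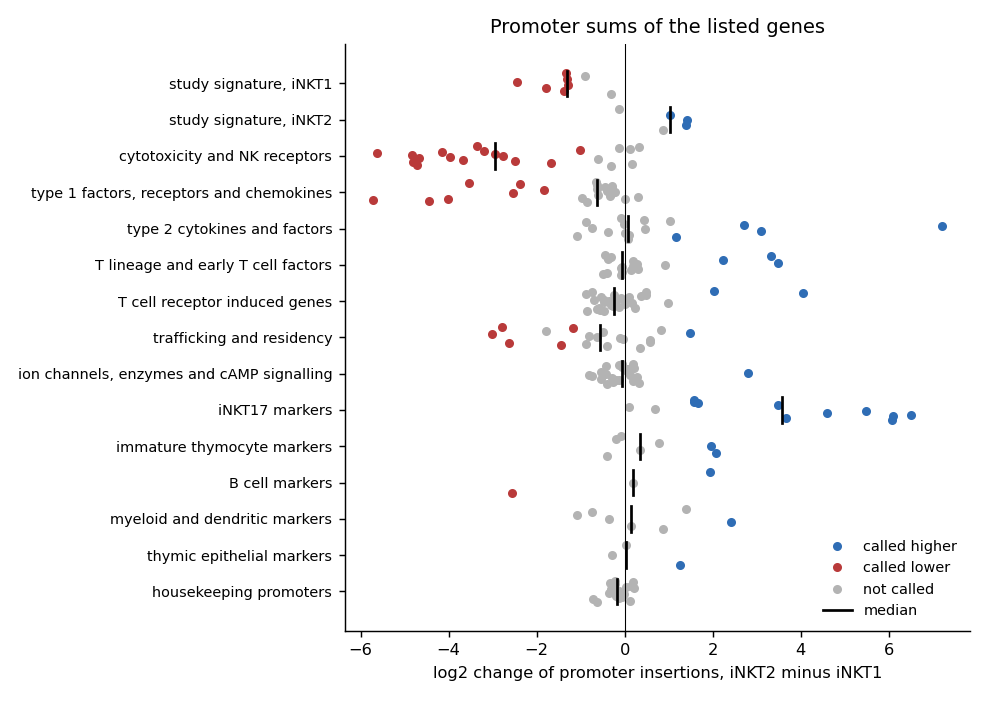
Log2 change of the summed promoter insertions (x axis, iNKT2 minus iNKT1) for each gene of the 15 lists (rows), blue where called higher, red where called lower and grey where not called, with a black bar at the list median. The cytotoxicity list lies to the left (median -2.95) and the iNKT17 list to the right (median 3.58), while the type 2 list is centred near 0 (median 0.08).

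Short strings in the DNA of the changed elements differed between the directions. They were searched on both strands in the 300 bases around the middle of the 72702 regions over 1 kb from a start. The T-box core TCACACC was in 15.9% of the regions called lower in iNKT2 (Wilson 95% interval 15 to 16.9), 4.09% of those higher, 5.43% of those not called and 5.99% of all. The Runx core TGTGGTT was in 23.6%, 15.5% and 14.6% (15.4% of all), and the ETS string AGGAAGTG in 14.7%, 7.23% and 9.54% (9.51% of all). On the iNKT2 side the TCF/LEF core CTTTGAT was in 12.2% of the regions called higher, 4.47% of those lower and 5.39% of those not called (6.61% of all), the ROR half-site TAGGTCA in 5.67%, 3.24% and 2.86% (3.42% of all) and the NFAT core TGGAAAA in 9.27%, 4.83% and 6.95% (7.23% of all). AGGGGGC, part of the CTCF motif, was less frequent in both called sets, at 4.20% and 3.39%, than in regions not called, 8.45% (7.25% of all). A string is a description of the sequence and not evidence that a factor was bound, intervals cover counting error only, and regions of 1 locus are not independent. The sets also differed in base composition. With promoters included, median GC was 46% in regions called higher, 47.8% in those lower and 49.4% in those not called. The part of base composition in the shares of strings was not tested.

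Sorted by the size of the change, the shares moved in steps. Bins were added after the data were seen. TCACACC fell from 22.3% of 1136 regions with a log2 change under -4 to 14.3% from -4 to -2, 5.69% from -1 to 0 and 4.42% of 1176 regions over 6. CTTTGAT climbed from 3.52% under -4 to 5.46% from 0 to 1, 10.4% from 2 to 4 and 16.3% over 6. TAGGTCA stayed between 2.79% and 3.43% below a change of 2 and reached 11.8% over 6, beside the open iNKT17 genes above. AGGGGGC was most frequent at the centre, 9.74% from 0 to 1, and fell to 3.52% and 2.89% at the ends.

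**Figure D5:**
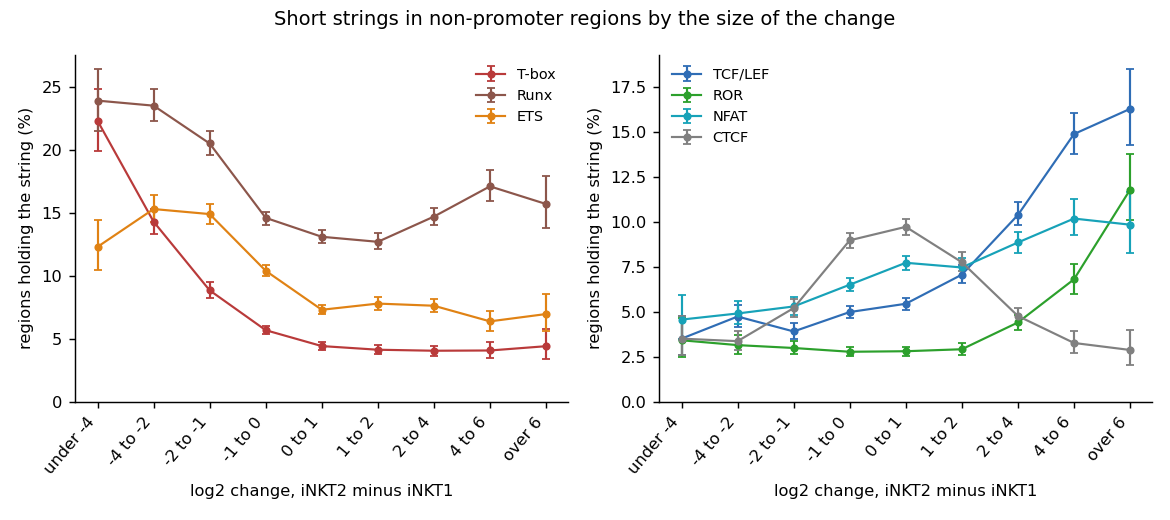
Share of non-promoter regions that hold a string in the central 300 bases (percent, y axis) in 9 bins of the log2 change between BALB/c iNKT2 and iNKT1 (x axis), with Wilson 95% intervals as bars. On the left T-box, Runx and ETS strings are most frequent at negative changes (22.3% for T-box under -4), and on the right TCF/LEF and ROR strings climb to 16.3% and 11.8% over 6 while CTCF peaks at 9.74% in the middle.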

How the data were processed

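The deposited table holds counts of transposase insertions per region for 10 libraries, and although named as normalized it holds whole numbers with unequal library totals, 22856960 to 36342635 in the BALB/c libraries. The authors aligned reads to mm10 with Bowtie 1.0, kept unique alignments, removed duplicates, called summits per replicate with MACS2, merged them and counted insertions. Members and gene lists were chosen with earlier results of these data known. Groups came from the sample titles. Counts of all regions, and sums per gene over promoters (within 1 kb of a protein-coding start in GENCODE release M21, mm10) and over other regions within 100 kb, were fitted over the 4 groups with edgeR 4.0.16 (TMM, quasi-likelihood test, R 4.3.3), with p-values adjusted by Benjamini-Hochberg over all features and the spread shared with SKG. Calls needed an adjusted p under 0.01 and 4-fold for regions or 2-fold for sums, and the subset change was also compared between strains as an interaction. CPM are TMM-scaled. The fit was tested on simulated data with known changes. Alternatives used DESeq2 1.42.0 and limma 3.58.1 (voom, none or quantile normalization), other thresholds, windows and scaling, and each library left out.

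Named by rule were the 10 genes per direction with the most robust calls net of the other direction, the 6 distal elements (over 10 kb from a start) and 6 promoters of smallest adjusted p, at most 1 per gene, the 4 longest runs, and all list members by their counts. Genes of the signature lists were left out of the first 3. A few items that the rule or lists take in are not reported here. Motif intervals are Wilson intervals and cover counting error only. Tables were handled with Python 3.11.15.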

Additional observations from a re-analysis of the deposited data

Results flagged for a closer look

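The results here were picked from the named regions and from sums of named or listed genes. Their iNKT2 against iNKT1 change differed between SKG and BALB/c by the edgeR interaction test, at an adjusted p under 0.01 over all features. Other regions that passed are not covered, such as 1 each at Itga4 (4.16, edgeR adjusted p = 0.00104) and Themis (-2.15, edgeR adjusted p = 7.8e-04). Values are the log2 change in SKG minus that in BALB/c. The largest among the named regions was the intergenic region nearest to Gm10800, at -7.38 (edgeR adjusted p = 3.2e-04), which was near 0 in all SKG libraries. The element in an intron of Emb assigned to Gm17509 differed by -1.60 (edgeR adjusted p = 0.00669), and that near Spdye4c by 2.49 (edgeR adjusted p = 7.8e-04), both with a smaller change in SKG.

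Among gene sums, the promoter of Themis differed by -2.37 (edgeR adjusted p = 0.00153). Distal sums whose subset change was lower in SKG were those of Prkca, protein kinase C alpha (-2.90, edgeR adjusted p = 4.3e-04), Arpp21 (-2.06, edgeR adjusted p = 3.8e-04), Fcrla (-1.88, edgeR adjusted p = 0.00149) and Rasgef1b (-1.08, edgeR adjusted p = 0.00351). Distal sums whose subset change was higher in SKG were those of Il4ra, the IL-4 receptor alpha chain (1.35), Myb (0.97), Camk4 (0.87), Tcf7, which encodes TCF-1 (0.74), Cxcr4 (0.70), Itpkb (0.65), Foxp1 (0.62), Fasl (0.61), Cd28 (0.51) and Pde4b (0.48), with edgeR adjusted p from 0.00345 for Myb to 0.00971 for Itpkb. A higher change can be a smaller loss in iNKT2, as at Fasl (log2 -1.27 in BALB/c and -0.66 in SKG). Strain and library preparation cannot be told apart here.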

How the results depend on the processing

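No called change of the 20 loci or 24 named regions reversed in the refits run for them, but with quantile normalization lower calls outnumbered higher ones over regions and, at 1957 against 1933, over non-promoter sums. Higher and lower region calls numbered 8787 and 8929 with quantile normalization, 7924 and 3584 with a mean of at least 36 insertions, and 25339 and 15164 at an adjusted p under 0.05 and 2-fold. Genes by non-promoter sums numbered 1502 and 881 in a test against 2-fold, 4322 and 4076 at 0.05 with no fold, and 4027 and 977 with library totals. Genes by promoter sums numbered 575 and 88 against 2-fold, 704 and 588 with quantile normalization, and 2641 and 2648 at 0.05. Leaving out 1 library gave 12625 to 14919 higher and 5217 to 6944 lower regions, 718 (iNKT1 library 1) to 1232 higher promoters and 153 (iNKT1 library 1) to 444 (iNKT2 library 1) lower. With the replicate number as a replicate block, regions numbered 14696 and 5729. The labels do not say that the numbers pair libraries, and the deviations of the same-numbered libraries correlated at 0.107 and 0.0768. Promoters were 6.28% of higher and 6.19% of lower calls, and 9.19% and 10.6% with a 2 kb window. Searched over whole regions, strings were in 4.9% and 18.1% of higher and lower calls for T-box, 16.9% and 26.1% for Runx, 7.84% and 16.1% for ETS, 13.3% and 5.71% for TCF/LEF, 6.32% and 4% for ROR, 11% and 6.84% for NFAT and 4.9% and 4.46% for CTCF. With quantile calls the shares that moved were T-box lower 13.4%, Runx 16.6% and 21.6%, TCF/LEF higher 13.7%, ROR higher 6.33%, and CTCF 3.28% and 4.01%. The causes were not tested. Named regions kept their call in 360 of 360 refits. Against 2-fold the calls of the Tspan5 distal sum and of the Chdh and Slamf7 promoters were lost. With assignment within 20 kb, lower calls fell to 9 at Ifngr1, 8 at Runx3 and 1 at Itgb1, and higher calls to 6 at Gcnt1.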

Other observations

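Further strings were searched in the same way in regions over 1 kb from a start. The TCF/LEF string TTTGATG was in 9.78% of regions called higher, 4% of those lower and 5.01% of those not called (5.84% of all). The GATA string AGATAAG was in 5.89% of the regions called higher in iNKT2, 4.79% of those lower and 4.53% of those not called (4.81% of all). The AP-1 string TGANTCA was in 12.6%, 16.7% and 11.6% (12.2% of all), and the E protein string CAGGTG in 19.8%, 25.3% and 23.5% (22.9% of all). The AP-1 string was most frequent on the iNKT1 side, as the T-box string was, and the E protein string least frequent on the iNKT2 side.

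Further runs of lower calls, chosen after their values were seen, lay beyond the longest. A run of 14 regions covered Klri2, Gm156 and Gm17631 in the NK gene complex, and 12 of its regions were called lower in SKG. Another of 14 regions (chr5:77086583-77170969) covered Hopx, a homeodomain protein of effector lymphocytes, and Spink2, with a median log2 change of -4.23, and one of 13 regions (chr1:171619029-171648510) covered Ly9 and Slamf7, with a median of -4.26. All regions of the Hopx and Ly9 runs were robust and called lower in SKG.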
